A study of Mus musculus with 10 samples.

Results

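Astrocyte marker genes were followed in the hippocampus of Dp1Rhr mice, a Down syndrome model with an extra copy of the genes of chromosome 16 from Cbr1 to Fam3b. The 39 markers were members of a list of genes known for high expression in astrocytes, and all 39 were measured among the 19938 genes tested. The list was chosen by marker identity with the Dp1Rhr against control values of these arrays already known, and its signal was taken from the probe set of each gene that was brightest over the 10 arrays. Differences between the groups are therefore given for these genes as a description, with no test of their own.

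The samples were whole hippocampi of 5 Dp1Rhr males and 5 wild-type control males, all 16 weeks old and labelled as C57BL/6N, with 1 array per mouse. The paper's methods instead describe the duplication lines as backcrossed towards C57BL/6J. The controls were littermates from crosses of the Dp5Yah and Dp1Rhr lines and carried neither duplication. The duplication is carried in every cell of the animal, so astrocytes and all other hippocampal cells had the extra copy. In such bulk tissue, fewer astrocytes and less RNA per astrocyte cannot be told apart.

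Astrocytes take up glutamate and potassium released by neurons, store glycogen, make most of the lipoproteins of the brain and line the vessels with their end-feet. In the hippocampus, cells with many of the same markers also act as stem cells of the dentate gyrus. Many astrocyte genes are shared with other cells: Vim, S1pr1, Apoe, Clu and Cst3 are also known from endothelial, ependymal or microglial cells.

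The median log2 fold change (Dp1Rhr minus control) of the 39 genes was 0.02, against 0.00 over all genes, and 21 had a positive and 18 a negative difference. The list held genes at both ends: Etnppl and Lcat passed with higher values, and Adgrg1, Fgfr3, Entpd2 and Itih3 passed with lower values. Passing means an adjusted p under 0.05 in limma over all 19938 genes. That made 2 higher genes, where the rule called 0.627% of all genes, and 4 lower genes, where it called 0.176%. Nothing is read from these counts, because the same contrast was known when the list was made. With each array centred on its median the members gave 2 higher and 6 lower, and all genes 97 higher and 89 lower in place of 125 and 35.

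**Figure D1:**
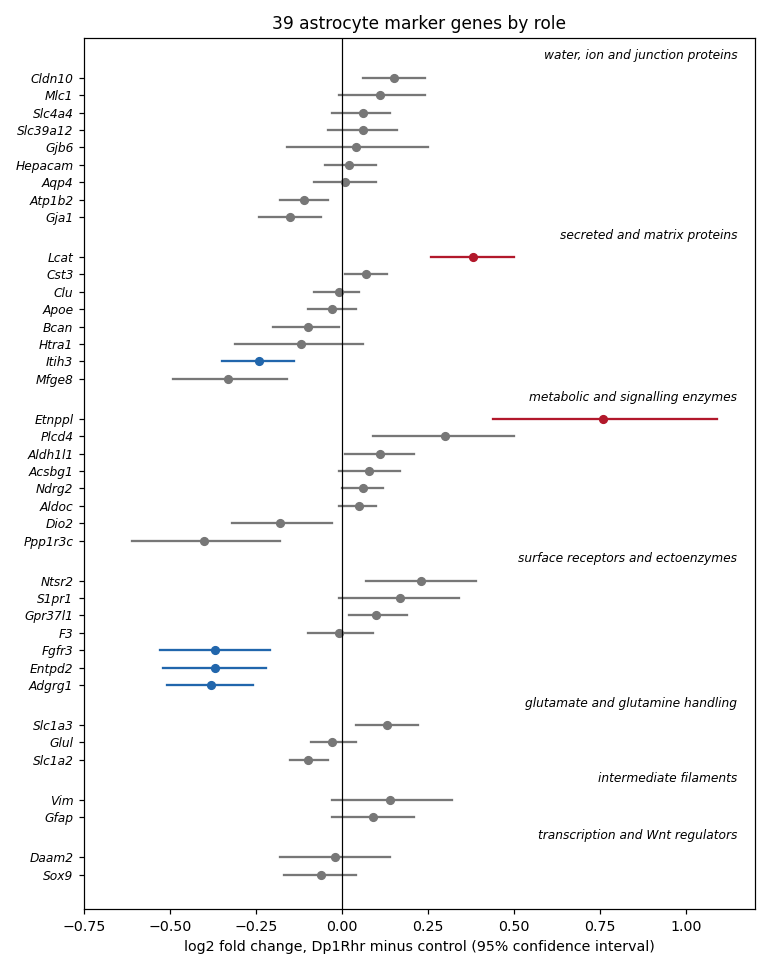
Log2 fold changes of the 39 astrocyte marker genes, Dp1Rhr minus control with n = 5 per group, sorted by role and drawn with 95% confidence intervals from limma. Red and blue mark genes past adjusted p 0.05 in the fit over all genes, higher (Etnppl and Lcat) and lower (Itih3, Fgfr3, Entpd2 and Adgrg1), and grey marks the other 33.

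None of the 39 genes lies in the duplicated interval or elsewhere on chromosome 16. They are spread over 16 chromosomes, so all have the usual 2 copies in both groups. Promoter sequences (RefSeq, GRCm38.p6) were found for 34 of the 39, as windows of 300 bases with 250 before and 50 after a start site. The bases before the start are shown for the passing genes whose stretch overlaps no annotated gene, to set 1 higher gene beside 2 lower ones. They lie at chr3:130617198-130617447 for Etnppl, chr5:33721474-33721723 for Fgfr3 and chr2:25395624-25395873 for Entpd2, each on the + strand, and are written 5′ to 3′ with matches to the searched motifs in capitals:
Etnppl: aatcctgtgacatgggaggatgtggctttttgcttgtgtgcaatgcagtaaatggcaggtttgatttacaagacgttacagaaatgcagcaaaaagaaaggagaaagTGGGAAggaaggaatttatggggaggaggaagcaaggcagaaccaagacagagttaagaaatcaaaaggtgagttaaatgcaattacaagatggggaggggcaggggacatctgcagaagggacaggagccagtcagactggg
Fgfr3: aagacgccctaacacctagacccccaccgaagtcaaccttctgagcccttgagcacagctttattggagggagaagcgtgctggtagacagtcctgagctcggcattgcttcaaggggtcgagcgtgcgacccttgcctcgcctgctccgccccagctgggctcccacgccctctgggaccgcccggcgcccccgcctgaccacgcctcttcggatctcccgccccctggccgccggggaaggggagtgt
Entpd2: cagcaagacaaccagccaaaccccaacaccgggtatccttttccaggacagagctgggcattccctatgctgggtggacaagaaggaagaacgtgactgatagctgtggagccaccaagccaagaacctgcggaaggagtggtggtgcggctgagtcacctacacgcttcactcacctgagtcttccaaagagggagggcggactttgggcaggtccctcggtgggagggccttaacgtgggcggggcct

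The 3 stretches differed in composition. The Fgfr3 stretch was 66.8% G and C with 19 CpG pairs, that of Entpd2 59.2% with 9, and that of Etnppl 46.0% with 1. The capitals in Etnppl mark TGGGAA, the core letters bound by the Notch effector RBPJ, and the stretches of Fgfr3 and Entpd2 held none of the motifs. Motifs were searched on both strands of the whole windows, and the end of TGGGAA can share letters with TTCNNNGAA.

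TGGGAA was in windows of 13 of the 34 genes (38.2%), among them Gfap, Cldn10, Mfge8 and Slc4a4, and in 28.3% of all genes. TTGGCA, the letters known for the NFI factors of astrocyte development, was in 5 (14.7%, against 16.1% of all genes), which include a second window of Etnppl. TTCNNNGAA, the STAT pattern, was in 5 (14.7%, against 9.55%), Gfap and Slc1a3 included. The SOX core AACAAT was found for 1 gene, Plcd4 (2.94%, against 12.2%), and the TATA box letters TATAAA for 8 (23.5%, against 15.7%). Each match describes the letters of the window only.

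Among the 8 metabolic and signalling enzymes, 6 had positive and 2 negative differences, and 1 passed. Etnppl, which breaks down phosphoethanolamine and is known from astrocytes, lies on chromosome 3 from 130617448 to 130635750 (GRCm38). Its log2 signal was 7.80, 7.46, 7.86, 8.31 and 7.92 in control replicates 1 to 5 and 8.60, 8.96, 8.75, 8.61 and 8.25 in Dp1Rhr replicates 1 to 5. The groups touched at 1 point, where control replicate 4 read above Dp1Rhr replicate 5. The log2 fold change of 0.76 ± 0.15 SE (1.70-fold, n = 5 per group) was the 21st largest in size of the 19938 genes.

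Ppp1r3c, which brings a phosphatase to glycogen and so favours glycogen synthesis, stood at the other end. It read 9.86, 9.94, 10.09, 9.84 and 9.70 in the controls and 9.54, 9.33, 9.24, 9.52 and 9.80 in Dp1Rhr. Dp1Rhr replicate 5 lay inside the control range and the other 4 below it. The log2 fold change of -0.40 ± 0.10 SE was the lowest of the 39, and the gene did not pass.

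Plcd4, a phospholipase C that makes second messengers, read 8.14, 8.33, 8.28, 8.70 and 8.32 in the controls and 8.60, 8.71, 8.76, 8.74 and 8.45 in Dp1Rhr. Control replicate 4 was again the control nearest to Dp1Rhr, and the difference of 0.30 ± 0.09 SE did not pass. The remaining enzymes were closer to 0. Dio2, which activates thyroid hormone, had -0.18 ± 0.07 SE, and the astrocyte markers Aldh1l1 of folate metabolism, Aldoc of glycolysis and Acsbg1 of fatty acid activation had 0.11, 0.05 and 0.08. Ndrg2, a hydrolase-fold protein abundant in astrocytes, had 0.06.

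The 7 surface receptors and ectoenzymes were divided: 3 passed with lower values, and the other 4 had differences from -0.01 to 0.23. Adgrg1, an adhesion receptor for matrix collagen that is also known from neural progenitors, lies on chromosome 8 from 94974756 to 95014208. It read 11.29, 11.29, 11.18, 11.35 and 11.07 in the controls and 10.74, 10.84, 10.92, 10.79 and 10.96 in Dp1Rhr. All Dp1Rhr arrays were below all controls, with a log2 fold change of -0.38 ± 0.06 SE (0.766-fold).

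Fgfr3, a receptor for fibroblast growth factors, lies on chromosome 5 from 33721724 to 33737068. Its signal was 9.81, 9.56, 9.58, 9.81 and 9.63 in the controls and 9.29, 9.29, 9.24, 9.16 and 9.55 in Dp1Rhr, so that 4 Dp1Rhr arrays were clearly lower and replicate 5 came close to the lowest control. The log2 fold change was -0.37 ± 0.07 SE (0.772-fold). Entpd2, an ectoenzyme that splits extracellular ATP and marks stem cells of the adult hippocampus, lies on chromosome 2 from 25395874 to 25401323. It read 8.15, 7.93, 7.98, 7.89 and 7.86 in the controls and 7.61, 7.49, 7.56, 7.50 and 7.80 in Dp1Rhr. Again no Dp1Rhr array reached the controls, and the log2 fold change was -0.37 ± 0.07 SE (0.774-fold).

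Ntsr2, a neurotensin receptor of astrocytes, and S1pr1, a sphingosine phosphate receptor shared with endothelium, leaned the other way. Ntsr2 read 10.38, 10.55, 10.82, 10.54 and 10.68 in the controls and 10.91, 10.87, 10.75, 10.89 and 10.69 in Dp1Rhr (0.23 ± 0.07 SE). S1pr1 read 10.46, 10.71, 10.87, 10.54 and 10.60 in the controls and 10.90, 10.86, 10.84, 10.84 and 10.56 in Dp1Rhr (0.17 ± 0.08 SE). The groups overlapped for both, and neither passed. Gpr37l1, an orphan receptor of glia, had 0.10 ± 0.04 SE, and F3, the tissue factor that starts coagulation, -0.01 ± 0.04 SE.

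Secreted and matrix proteins held 8 genes, of which Lcat passed with higher and Itih3 with lower values. Lcat, which esterifies cholesterol on lipoproteins, lies on chromosome 8 from 105939551 to 105943402. It read 10.67, 10.67, 10.72, 10.72 and 10.69 in the controls and 11.17, 11.11, 11.16, 11.06 and 10.85 in Dp1Rhr. The controls were close together (SD 0.03, against 0.13 in Dp1Rhr), all Dp1Rhr arrays lay above them, and the log2 fold change was 0.38 ± 0.06 SE (1.30-fold). Apoe, the main apolipoprotein of the particles on which this enzyme acts, had -0.03 ± 0.03 SE. Clu, the second abundant apolipoprotein of astrocytes, had -0.01 ± 0.03 SE.

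Itih3, a heavy chain that is linked to hyaluronan in the matrix, lies on chromosome 14 from 30908572 to 30923787. It read 8.33, 8.16, 8.32, 8.19 and 8.12 in the controls and 7.94, 7.90, 7.98, 8.04 and 8.05 in Dp1Rhr, without overlap (-0.24 ± 0.05 SE, 0.845-fold). Mfge8, which marks dying cells for engulfment, read 10.48, 10.53, 10.63, 10.46 and 10.45 in the controls and 10.20, 10.10, 10.03, 10.10 and 10.48 in Dp1Rhr. Here 4 Dp1Rhr arrays were lower and replicate 5 sat among the controls, and the difference of -0.33 ± 0.07 SE did not pass. Bcan, a proteoglycan of perineuronal matrix, had -0.10 ± 0.04 SE, the protease Htra1 -0.12 ± 0.09 SE and the protease inhibitor Cst3 0.07 ± 0.03 SE.

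**Figure D2:**
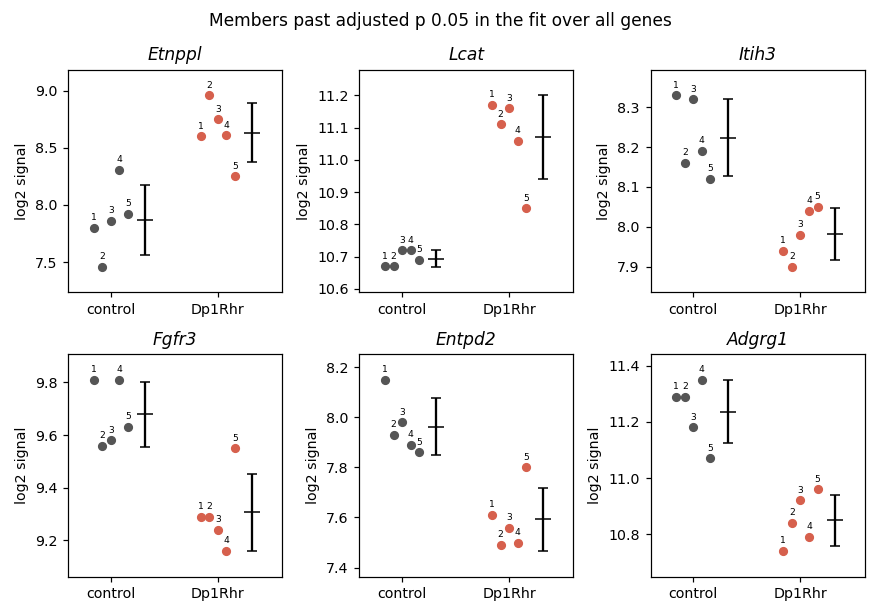
Log2 signal of the 6 passing members in each array, numbered by replicate, with group mean and SD (n = 5) beside the points. Dp1Rhr replicate 5 is the Dp1Rhr array closest to the controls in all 6 panels, and the groups overlap only for Etnppl.

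The transporters that clear glutamate differed in sign. Slc1a2, the main glutamate transporter of the adult forebrain, read 12.97, 12.99, 12.95, 12.96 and 12.96 in the controls and 12.87, 12.87, 12.90, 12.82 and 12.87 in Dp1Rhr. The difference of -0.10 ± 0.03 SE (0.934-fold) was small, but no array overlapped between the groups, and it did not pass. Slc1a3, the second astrocytic glutamate transporter and a radial glia marker, had 0.13 ± 0.04 SE, with Dp1Rhr replicate 5 at the control mean. Glul, the glutamine synthetase, had -0.03 ± 0.03 SE, and its second probe set gave 0.00.

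Of the 9 water, ion and junction proteins none passed, and the differences ran from -0.15 to 0.15. Gja1, the main connexin of astrocytes, read 11.27, 11.20, 11.34, 11.33 and 11.24 in the controls and 11.18, 11.14, 11.02, 11.14 and 11.15 in Dp1Rhr. These arrays did not overlap either, with a difference of -0.15 ± 0.04 SE. Its partner connexin Gjb6 had 0.04 ± 0.09 SE, with controls spread from 9.06 to 9.71 and Dp1Rhr from 9.35 to 9.44.

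Aqp4, the water channel of end-feet, was within 0.10 of no change by its 95% interval (0.01, from -0.08 to 0.10). Hepacam and Mlc1, which form an adhesion complex at the same sites, had 0.02 and 0.11. The bicarbonate transporter Slc4a4 had 0.06, the zinc transporter Slc39a12 0.06 and the sodium pump subunit Atp1b2 -0.11 ± 0.03 SE. Cldn10, a claudin, had 0.15 ± 0.04 SE by both of its probe sets.

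The intermediate filaments, which rise in reactive astrocytes, did not pass. Control arrays had a mean Gfap signal of 10.56 ± 0.12 (SD, n = 5) and Dp1Rhr arrays 10.64 ± 0.07 (SD, n = 5), and the 95% interval of its log2 fold change ran from -0.03 to 0.21. Vim was at 10.95 ± 0.19 (SD, n = 5) and 11.09 ± 0.08 (SD, n = 5), with an interval from -0.03 to 0.32. The lineage factor Sox9 had -0.06 ± 0.05 SE and Daam2, a formin of Wnt signalling, -0.02 ± 0.07 SE.

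Across the list, 17 of the 39 genes had a log2 fold change under 0.1 in size, and 8 differed by over 1.2-fold (Etnppl, Lcat, Plcd4, Ppp1r3c, Adgrg1, Fgfr3, Entpd2 and Mfge8). Of all 19938 genes, 16564 were under 0.1 in size and 378 differed by over 1.2-fold. Nothing is read from this, because the contrast was known when the list was made. The groups did not overlap for 7 genes, against 3.52% of all genes: Lcat above the controls, and Adgrg1, Fgfr3, Entpd2, Itih3, Gja1 and Slc1a2 below them. A rewritten version of FCROS, the fold-change rank method of the study, called 4 members higher and 7 lower, where it called 5.39% of all genes.

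The arrays did not contribute equally. Dp1Rhr replicate 5 was the Dp1Rhr array nearest to the control mean for 20 of the 39 members and for all 6 that passed. Over all genes it was nearest for 25.6%, and for 78 of the 160 that passed. Without it 10 members passed: the same 6 with Slc1a3, Cldn10, Ppp1r3c and Mfge8. The calls over all genes went from 160 to 284 in that fit.

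Without other single arrays fewer members passed. The count was 0 without control replicate 2 or Dp1Rhr replicate 1, 2 or 4, and it was 1 without control replicate 5 (Adgrg1). Over all genes these fits called 19, 5, 10, 12 and 12, in that order. It was 2 without control replicate 3 or Dp1Rhr replicate 3 (Adgrg1 and Lcat), 3 without control replicate 1 (these and Entpd2) and 5 without control replicate 4 (Etnppl, Entpd2, Adgrg1, Lcat and Plcd4). All genes gave 42, 170, 111 and 135 calls here. Of the 10 fits that each dropped 1 array, Adgrg1 passed in 6, Lcat in 5, Entpd2 in 3, Etnppl in 2, and Fgfr3 and Itih3 in 1 each. The size of the differences moved less: Adgrg1 stayed between -0.43 and -0.36, Lcat between 0.35 and 0.43, Entpd2 between -0.42 and -0.32, Fgfr3 between -0.43 and -0.34, Itih3 between -0.27 and -0.22 and Etnppl between 0.66 and 0.87.

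**Figure D3:**
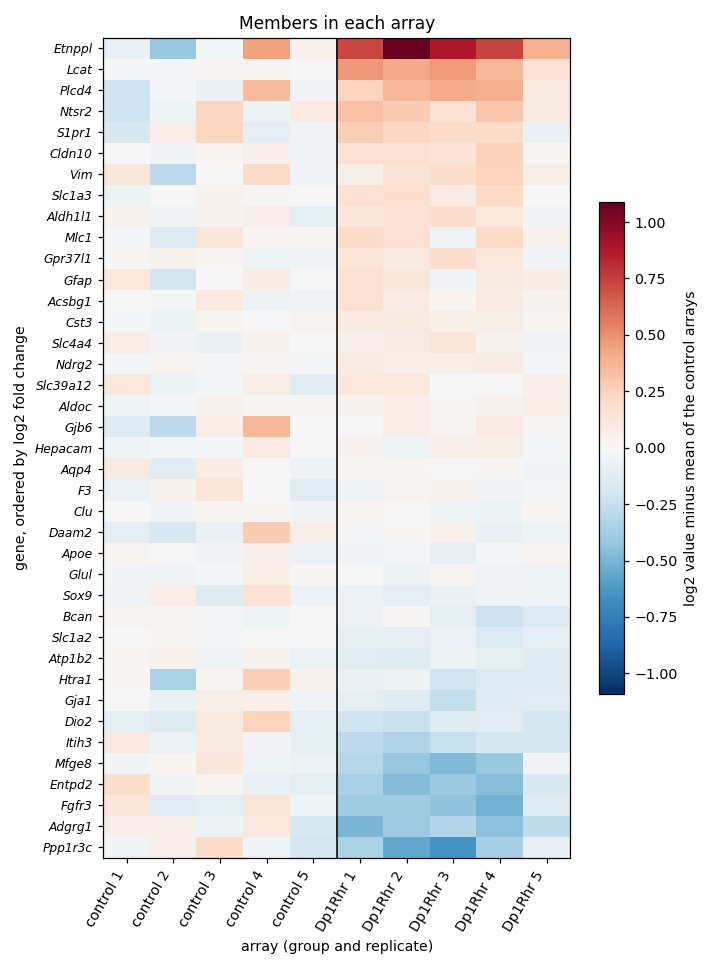
Log2 value of each member in each array minus the mean of the 5 control arrays, genes ordered by log2 fold change. Etnppl and Lcat at the top are higher and Ppp1r3c, Adgrg1, Fgfr3 and Entpd2 at the bottom lower in Dp1Rhr replicates 1 to 4, and Dp1Rhr replicate 5 is paler in these rows.

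Markers of other tissue also differed between the arrays. All 10 measured choroid plexus markers had positive differences. Their mean log2 signal ranged from 6.96 to 9.21 in control and, overlapping, from 8.74 to 9.63 in Dp1Rhr. In limma 0 passed and 8 had an unadjusted p under 0.05, against 2990 of the 19938 genes. Their median of 0.89 became 0.28 without control replicates 2 and 3. Ttr, the carrier protein of that tissue, read 9.53 and 9.83 in control replicates 2 and 3 and 13.21 to 13.61 elsewhere. All 8 immediate early genes had negative differences, with means from 8.73 to 9.73 in control and from 8.41 to 8.67 in Dp1Rhr. Of these genes 2 passed as lower, where the rule called 0.176% of all genes. Their median of -0.65 became -0.31 without control replicates 2 and 3. Meningeal markers had a median of 0.22 (0.15 without these 2 controls), with all 6 positive. The 7 markers of habenula and thalamus had a median of 0.06, from Tcf7l2 at -0.86 to Tac2 at 1.10. Of 5 dentate granule cell markers (median 0.06), Tdo2 rose (0.25, limma adjusted p = 0.021). Ependymal markers had a median of 0.16 over 6 genes, oligodendrocyte markers 0.14 over 7, endothelial markers 0.14 over 6, microglial markers 0.06 over 7, oligodendrocyte precursor markers 0.01 over 5 and neuronal markers -0.02 over 8. The part of these in the astrocyte differences was not tested.

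Without control replicates 2 and 3 together 0 members passed, in a fit with 8 arrays that called 5 genes in all. The differences of the 6 were -0.38 for Adgrg1, -0.45 for Fgfr3, -0.38 for Entpd2, -0.23 for Itih3, 0.38 for Lcat and 0.62 for Etnppl. Of the 39, 36 kept their sign, against 34 with the choroid plexus score and 32 with the immediate early score as covariate. The immediate early score did not overlap between the groups, and its fit called 0 of all genes. When the choroid plexus score of the array was a covariate, Fgfr3 was the only member that passed (-0.52) among 7 genes called in all, and Lcat was at 0.40, Adgrg1 at -0.41 and Etnppl at 0.63. Vim and Gfap were at 0.04 and -0.01 in this fit. S1pr1 was at 0.32, Ntsr2 at 0.32 and Htra1 at -0.27, each further from 0 than without the covariate.

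**Figure D4:**
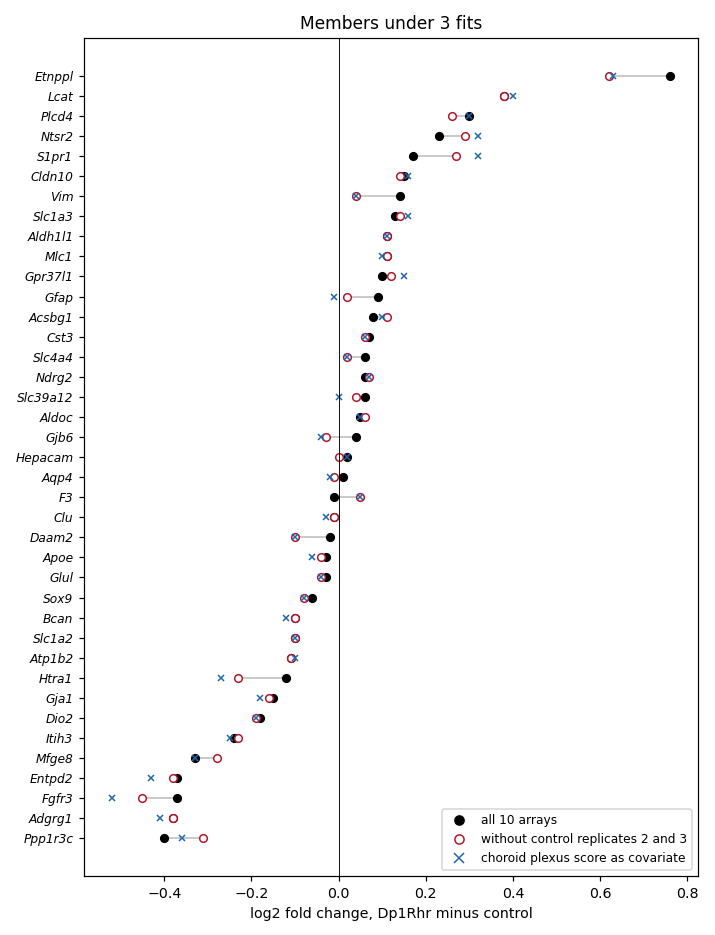
Log2 fold change (Dp1Rhr minus control) of the 39 members with all 10 arrays (black), without control replicates 2 and 3 (red rings) and with a choroid plexus score as covariate (blue crosses). Lcat stays at 0.38 to 0.40 and Adgrg1 at -0.41 to -0.38, while Etnppl, Vim and Gfap move towards 0. Fgfr3, S1pr1, Ntsr2 and Htra1 move away from 0.

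Other genes of astrocyte biology were taken from 13 lists by function, which excluded the 39. Of 189 such genes 167 were measured, and 2 rose and 0 fell in limma, with a median log2 fold change of 0.00. The same rule called 0.627% of all genes higher and 0.176% lower. At an unadjusted p under 0.05 there were 47 of the 167 in both directions, against 2990 of the 19938 genes. FCROS called 17 higher and 12 lower, and 5.39% of all genes. Slc38a3, which exports glutamine to neurons, read 10.79, 10.62, 10.65, 10.61 and 10.60 in the controls and 11.34, 11.24, 11.26, 11.17 and 10.86 in Dp1Rhr. All Dp1Rhr arrays were above all controls (0.52 ± 0.08 SE, limma adjusted p = 0.021). Its rise was known from these arrays when the lists were made. Hopx, a marker of radial glia-like stem cells and mature astrocytes, read 9.08, 9.11, 9.18, 9.00 and 9.19 in the controls and 9.69, 9.62, 9.54, 9.60 and 9.17 in Dp1Rhr. Again 4 Dp1Rhr arrays were apart and replicate 5 sat among the controls (0.41 ± 0.08 SE, limma adjusted p = 0.0494).

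None of the measured genes of reactive astrocytes passed in limma, and 2 pan-reactive, 2 A1 and 3 A2 genes had an unadjusted p under 0.05, against 2990 of 19938 genes. Of 11 pan-reactive genes the median was 0.04, with 7 positive and 4 negative. The 2 of smallest p were Serpina3n, a protease inhibitor of reactive astrocytes, at 0.20 ± 0.05 SE (limma adjusted p = 0.104) and Cxcl10 at 0.11. Lcn2 had the largest difference of this list in size, at -0.246. The 7 measured genes of the A1 class, linked to inflammation, were all positive with a median of 0.15 (0.08 without control replicates 2 and 3), among them Fbln5 at 0.33 and Srgn at 0.24. The 12 of the A2 class, linked to ischaemia, had a median of 0.00, with Tm4sf1 at 0.27 and Emp1 at 0.26.

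Genes tied to the members by pathway had list medians near 0, in which rises and falls can cancel. The median size of the difference, sign left aside, was 0.071 for FGF, 0.036 for purine, 0.052 for glycogen and 0.087 for lipid genes. Over all genes it was 0.039. Around Fgfr3, the 15 genes of FGF signalling had a median of -0.01, with the ligand Fgf1 at 0.14 and the inhibitor Spred1 at -0.21. Around Entpd2, the 7 purine genes had a median of 0.04, with the related ectoenzyme Entpd1 at 0.23 and Nt5e, which makes adenosine, at 0.10. Around Ppp1r3c, the 14 genes of glycogen, glucose and lactate had a median of 0.05, with the glycogen synthase Gys1 at 0.13 ± 0.03 SE (limma adjusted p = 0.0896) and Ldhb at 0.12. Around Lcat and Apoe, the 14 lipid genes had -0.03, with the fatty acid enzymes Fasn at -0.14 and Elovl5 at 0.15.

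For the stem cell genes, the 18 measured had a median of 0.01, with 12 positive and 6 negative. Besides Hopx, the receptor Notch1 was at -0.22 ± 0.05 SE (limma adjusted p = 0.0689) and Thrsp at 0.40. The 20 lineage factors had -0.04, with Lhx2 at -0.22 ± 0.05 SE (limma adjusted p = 0.0636) and Sox8 at -0.10. Secreted and matrix genes had 0.00 over 22, with 9 positive and 13 negative, from Tnc at -0.387 to Thbs4 at 0.406. At an unadjusted p under 0.05 there were 9, against 2990 of the 19938 genes. The 2 of smallest p were Gpc6, a glypican that promotes synapses, at -0.23 and the phosphatase receptor Ptprz1 at -0.16. Glud1 of glutamate breakdown was at -0.16, the potassium channel Kcnj10 at -0.06, the calcium channel Trpv4 at 0.40 ± 0.17 SE, and the connexins Gjb2 and Gjc3 at 0.34 and 0.19. None of these passed. Without control replicates 2 and 3, Trpv4 was at 0.16, Gjc3 at 0.10 and Nt5e at 0.03. With the choroid plexus score as covariate Trpv4 was at 0.01, Nt5e at -0.01 and Fbln5 at 0.20, and with the immediate early score Trpv4 was at -0.06, Gjc3 at -0.01, Nt5e at -0.02, Emp1 at 0.09 and Srgn at 0.09.

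**Figure D5:**
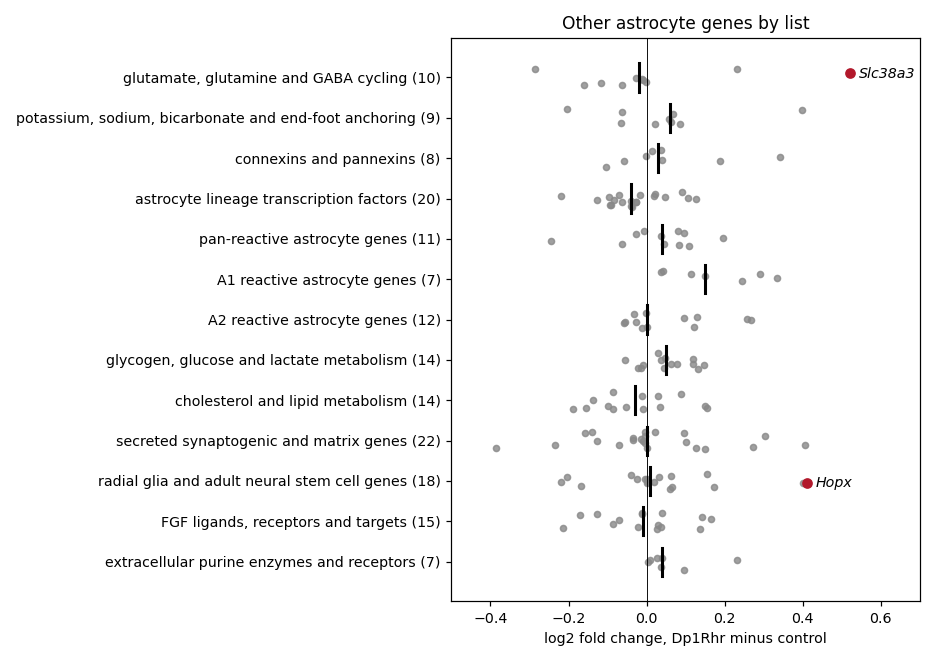
Log2 fold changes of the other astrocyte genes by list, Dp1Rhr minus control with n = 5 per group, with the number measured in brackets and the list median as a black bar. Red marks Slc38a3 and Hopx, the 2 genes past adjusted p 0.05, and the list medians lie between -0.04 and 0.15.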

How the data were processed

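Total RNA of both hippocampi of each mouse was hybridised to Affymetrix Mouse Gene 1.0 ST arrays, 5 for Dp1Rhr and 5 for control. The authors normalized the scans with RMA and deposited log2 values per probe set. No source used here says which arrays were normalized together. limma and mm10 are further names in the submitters' processing notes. How many arrays there were sets the precision, and their median log2 values ran from 6.77 to 6.83.

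Of 35556 probe sets, 21789 had exactly 1 gene symbol in the platform annotation, and those with several (1621) or none listed (12146) were left out. The brightest probe set by mean over the 10 arrays was kept for each of 19938 genes, and 21698 probe sets were matched to RefSeq genes of GRCm38 by Entrez identifier.

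The groups were compared with limma 3.58.1 (R 4.3.3, lmFit and eBayes, two-sided, Benjamini-Hochberg over all genes, adjusted p 0.05). The fit was run on simulated data with independent noise for each gene. Variation shared by the genes of an array was not simulated, so this was a check of the code only. The study's FCROS calls fixed tails of a rank distribution and was therefore an alternative (trim 0.25, f-value limits 0.025 and 0.975). It was rewritten here from ranks over all pairs of arrays, a trimmed mean and normal tails. The direction of its calls was taken from the limma fold change. Other alternatives were a replicate block, leaving out arrays, median centring, a second quantile normalization, a filter on dim genes (mean signal under the 40th percentile), averaged probe sets of a gene, array weights, eBayes with trend and robust, and covariates for choroid plexus or immediate early genes (mean z-score per array). Members, gene lists and tests were chosen with earlier results of these data known. Every array was named for all passing members and for the 5 highest and 5 lowest by log2 fold change, with Slc1a2 and Gja1 added after their values were seen. In the other lists, passing genes and the 2 of smallest p per list were named. Lcn2, Thbs4, Tnc and Thrsp were added after their values were seen. The labels call the mice biological replicates. Promoter windows were read from the RefSeq table.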

Additional observations from a re-analysis of the deposited data

Results flagged for a closer look

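In groups of 5, a value far from the other 4 was looked for in 130 groups. These were the 39 members and the other astrocyte genes named by passing or smallest p, each in control and Dp1Rhr. There were 4 such values, where chance marks about 1 group in 20. For S1pr1, Dp1Rhr replicate 5 read 10.56 and the other Dp1Rhr arrays 10.84 to 10.90. For Ndrg2, Dp1Rhr replicate 5 read 13.10 and the others 13.18 to 13.20. For Gja1, Dp1Rhr replicate 3 read 11.02 and the others 11.14 to 11.18. For Slc38a3, control replicate 1 read 10.79 and the other controls 10.60 to 10.65.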

How the results depend on the processing

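The median of the members stayed between 0.00 and 0.05 with 1 array left out, and was -0.02 with the immediate early score as covariate. Of 780 log2 fold changes of members over 20 alternatives, 768 moved by less than the SD between replicates and 12 moved more. Of these 12, 9 were with the immediate early score as covariate. No passing gene changed sign. The counts say little about stability, because many alternatives could not move a value that far. The replicate block, trend and robust and the filter on dim genes leave a fold change as it is, and dropping 1 array shifts it little. The 2 higher and 4 lower members became 4 and 7 with FCROS, 0 and 1 with the choroid plexus score, 0 and 0 with the immediate early score and 0 and 0 without control replicates 2 and 3. Over all genes, the choroid plexus fit called 7, the immediate early fit 0 and the fit without these controls 5. The immediate early score ran from -0.237 to 1.95 in control and from -1.01 to -0.504 in Dp1Rhr. Without overlap, its fit could not separate the score from genotype well. The higher count was 1 with trend and robust and 1 with a second quantile normalization. With 1 array left out, members higher ran from 0 to 4 and lower from 0 to 6. The cause was not tested.

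For the other astrocyte genes, the 2 higher and 0 lower became 17 and 12 with FCROS, 1 and 1 with array weights, 1 and 2 with centring and 1 and 1 with a second quantile normalization. The higher count was 0 with either score or without control replicates 2 and 3, and the lower was 1 with trend and robust. With 1 array left out, they ran from 0 to 5 and 0 to 3. With the replicate block 0 members and 0 other astrocyte genes passed, and 4 of all genes did. Deviations of same-numbered arrays correlated from -0.337 to 0.124 and 1 of 10 arrays correlated best with its own number, so the numbers were not taken as pairs.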

Other observations

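Within the controls, replicate 4 had the highest value for 15 of the 39 members (17.2% of all genes), among them Etnppl, Plcd4, Gjb6, Dio2, Daam2 and Htra1. Replicate 2 had the lowest for 14 (18.6% of all genes), among them Etnppl, Gjb6, Vim, Gfap and Htra1. The SD was larger in control than in Dp1Rhr for 23 of the 39 members (59.0%), against 56.4% of all genes.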
